A study of Mus musculus with 15 samples.

Results

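Ribosomal protein genes encode the structural proteins of the cytosolic ribosome, which carries out protein synthesis. The members were the protein-coding genes whose symbol is Rpl or Rps with a number and, where present, one of the letters a, x, y or l and a further digit, together with Rpsa, Rplp0, Rplp1 and Rplp2. Of 83 such genes in the annotation, 82 had values among the 32930 genes measured, 32 of the small and 50 of the large subunit. The values, whose unit the table does not name, were read as FPKM, fragments scaled to transcript length and library size, and were summed over the transcripts of a gene. Of the 82 members, 80 reached 0.5 FPKM in 5 or more libraries and were tested along with 15586 genes in all. The testis-type paralogue Rpl10l had no value, and Rpl17 and Rpl39l stayed below that limit.

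A ribosome holds one copy of most of its proteins, so the genes are expressed at high levels and in near-fixed proportion in most cells. Their promoters and messenger RNAs share features that tie them to growth: the transcript begins in a run of pyrimidines, the terminal oligopyrimidine tract, through which mTORC1 signalling controls translation. A few members have paralogues with restricted expression, and Rpl3l, made in striated muscle in place of Rpl3, is the best known.

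RNA was sequenced after removal of ribosomal RNA in 15 libraries of tissue labelled vascular from C57BL/6 mice at 10 weeks of age, 5 libraries in each of 3 groups. The Lien group is labelled hypertensive with Lien, read from the series title as liensinine, a lotus alkaloid; the AngII group is labelled hypertensive, AngII being angiotensin II, a peptide that raises blood pressure; and the NS group is labelled normal. The labels state no dose, route or duration, and the extraction note speaks of cardiac tissue. Whether the libraries come from separate mice is not stated, so the p-values below measure the spread between libraries only.

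The deposited values summed to 477095 to 569546 FPKM per library, and without fragment counts no counting interval is given. Smooth muscle markers averaged 4.62 to 7.02 on the log2(FPKM + 1) scale in the 15 libraries, and all 10 genes of that list and all 8 endothelial markers were measured above the limit. The libraries differed in other tissues: nerve markers averaged 3.69 to 5.03 in AngII 6, AngII 7, AngII 9, Lien 11, NS 2 and NS 3, and at most 2.69 in the other 9. These 9 were AngII 8, AngII 10, Lien 12 to Lien 15, NS 1, NS 4 and NS 5. In bulk tissue, fewer cells of a type and less RNA per cell cannot be told apart.

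Sequences around the transcription start were searched for a pyrimidine run. RefSeq promoters (GRCm38.p6, 250 bases before to 50 after the start) were matched for 62 of the 82 members, 74 starts in all. The 65 bases from 40 before to 25 after the start are printed below, with the longest run of at least 6 C or T bases lying between 10 bases before and 20 after the start in capitals. The first 4 are shown because Rps6 and Rps9 were among the steadiest members and Rplp2 and Rplp0 encode the stalk that recruits elongation factors.
Rps6: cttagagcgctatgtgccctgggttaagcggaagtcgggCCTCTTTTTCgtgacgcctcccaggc
Rps9: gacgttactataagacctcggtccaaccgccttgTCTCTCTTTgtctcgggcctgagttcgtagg
Rplp2: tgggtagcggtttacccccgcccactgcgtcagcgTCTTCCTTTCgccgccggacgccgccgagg
Rplp0: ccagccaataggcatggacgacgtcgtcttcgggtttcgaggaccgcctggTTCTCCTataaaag
They lie at chr4:86857343-86857407 (minus strand), chr7:3704001-3704065 (plus strand), chr7:141447611-141447675 (plus strand) and chr5:115559427-115559491 (plus strand). In Rplp0 the run lies after the start listed by RefSeq and not at it, and the start used in this tissue was not tested. The next 5 belong to members that differed widely between libraries, described further on, and of these Rpl41 and Rpl3l have no capitals.
Rpl7a: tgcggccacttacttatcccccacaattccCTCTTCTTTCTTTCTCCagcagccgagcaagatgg
Rpl18: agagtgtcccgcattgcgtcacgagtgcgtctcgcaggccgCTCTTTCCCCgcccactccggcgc
Rps27: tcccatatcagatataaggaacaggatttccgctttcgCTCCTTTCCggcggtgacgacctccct
Rpl41: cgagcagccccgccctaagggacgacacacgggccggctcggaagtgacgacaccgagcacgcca
Rpl3l: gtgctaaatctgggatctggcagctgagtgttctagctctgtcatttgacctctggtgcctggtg
They lie at chr2:26910767-26910831 (plus strand), chr7:45718031-45718095 (plus strand), chr3:90213624-90213688 (minus strand), chr10:128549144-128549208 (minus strand) and chr17:24727786-24727850 (plus strand), the last being the first of 2 starts listed for that gene. A run of this kind stood in 40 of the 74 member promoters (54.1%) and in 9417 of all 32851 promoters (28.7%). TCTTT in the same window of the gene strand was found in 13.5% of member promoters and 3.27% of all. On either strand of the whole 300 bases, CCGGAAG, the core bound by ETS family factors, was found in 36.5% and 8.86%, and AAGATGG, the core bound by YY1, in 16.2% and 6.34%. Matches of different motifs may overlap, and TCTTT is itself part of a pyrimidine run.

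As a family the genes stood far above other genes. The median of the mean FPKM over 15 libraries was 259.3 for the 80 tested members and 6.07 for the other 13389 protein-coding genes tested, and 65 members averaged at least 100 FPKM. Rplp1, an acidic protein of the stalk, was the highest, at 1110 ± 226 FPKM in Lien, 1298 ± 421 in AngII and 1087 ± 220 in NS (SD, n = 5 each). Below it came Rpl13a, a large-subunit protein known in human myeloid cells to leave the ribosome and silence transcripts, with a mean of 660.8 FPKM over all libraries. Rpl13 averaged 653.7 FPKM, Rps3a1 609.7, Rps14 607.7, Rplp0 577.2, Rpl23a 567.8 and Rps9 511.4, while Rplp2, partner of Rplp1 in the stalk, averaged 325.8 and Rpsa, also known as a laminin receptor, 377.2. The spread of Rplp1, from the mean of one group to that of another, lay within 1 SD of the AngII group.

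Together the 82 genes held 3.02% to 6.63% of all FPKM in a library. Their sum was 27377, 19070, 17945, 22613 and 18232 FPKM in Lien 11 to Lien 15. It was 22508, 35569, 22366, 31581 and 15769 FPKM in AngII 6 to AngII 10, and 18105, 26852, 18448, 17860 and 21712 FPKM in NS 1 to NS 5. AngII 7 and AngII 9 were the 2 highest of the 15 libraries, AngII 10 was the lowest, and the 3 groups overlapped. The sum averaged 21047 ± 3999 in Lien, 25559 ± 7934 in AngII and 20595 ± 3830 in NS (SD, n = 5 each), so the groups differed by less than the SD of the AngII group. Small-subunit genes stood to large-subunit genes at a ratio of summed FPKM of 0.649 to 0.746.

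The 4 libraries with the highest sums, AngII 7, AngII 9, Lien 11 and NS 2, were also the 4 highest in T cell and in B cell markers. T cell markers, 13 genes of which all 13 were tested, averaged 3.50, 3.75, 2.15 and 2.75 on the log2(FPKM + 1) scale in these 4 libraries and at most 1.52 in the other 11. B cell markers, 10 genes of which 9 were tested, averaged 4.00, 4.12, 2.83 and 2.93, and at most 1.69 elsewhere. The summed FPKM of the T cell list ranged from 4.502 to 61.3 in Lien, from 4.65 to 208.0 in AngII and from 7.73 to 89.8 in NS, that of the B cell list from 8.61 to 87.8 in Lien, from 5.77 to 238.8 in AngII and from 15.2 to 89.3 in NS, and no gene of either list was at 0 in every library. The part of lymphoid cells in the level of the ribosomal protein genes was not tested.

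**Figure D1:**
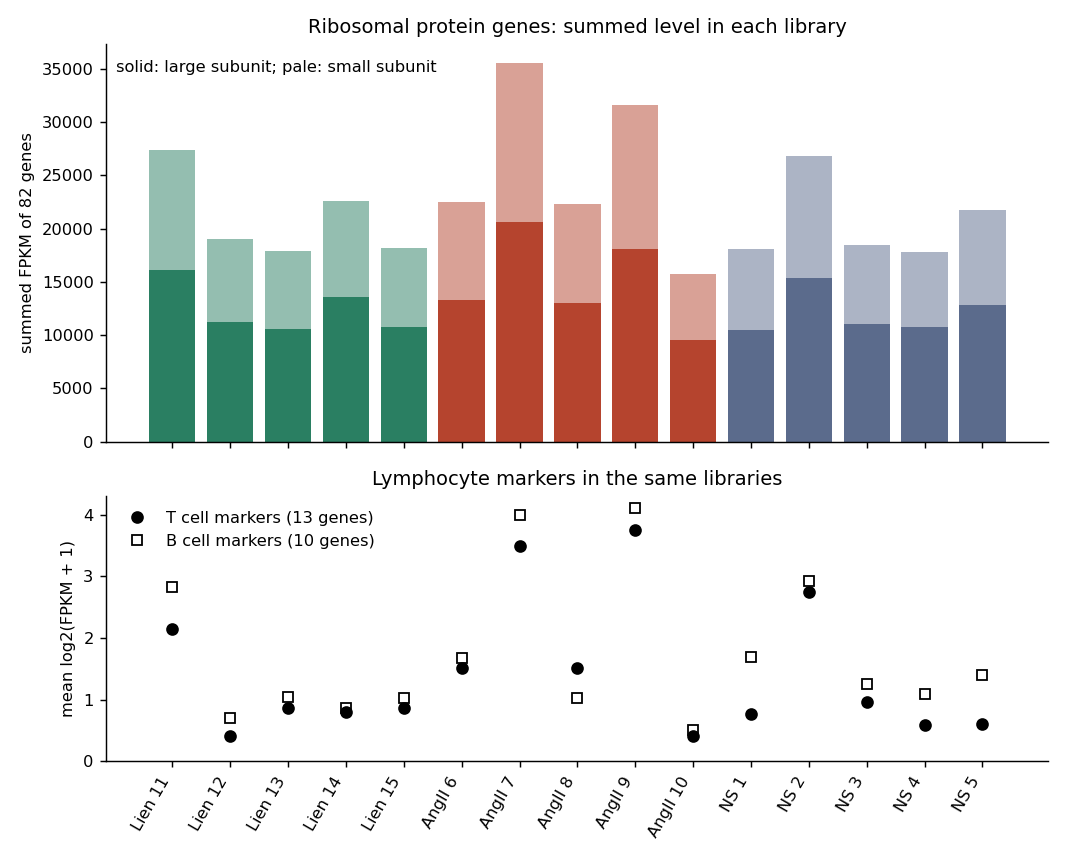
Summed FPKM of the 82 ribosomal protein genes in each library, large subunit solid and small subunit pale (upper panel), and the mean log2(FPKM + 1) of T cell and B cell markers in the same libraries (lower panel), by group. AngII 7 and AngII 9, at 35569 and 31581 FPKM, stand above the other 13 libraries, and they are also the 2 highest in both marker lists.

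Most members moved with the median member of the same library, a reference taken from these same members, so some closeness is built in. The median pairwise Pearson r of the tested members was 0.69. The SD below is not given for other genes. Relative to the median member of the same library, the SD over 15 libraries was under 0.25 on the log2 scale in 50 of the 80 tested members and above 1 in 9. Among the steadiest were Rps6, the substrate of S6 kinase downstream of mTORC1, with an SD of 0.08 on the log2 scale, Rps3 (0.09), Rps20 (0.09) and Rps9 (0.10). The most variable were Rpl41 (2.38), Rpl29 (1.97), Rpl7a (1.75), Rps27a (1.70) and Rpl3l (1.54). Rps6 stood at 637, 445, 375, 473 and 410 FPKM in Lien 11 to Lien 15, at 497, 837, 473, 770 and 352 in AngII 6 to AngII 10, and at 417, 605, 426, 399 and 485 in NS 1 to NS 5. AngII 7 and AngII 9 were the 2 highest and AngII 10 the lowest for this gene as for the sum, and its groups overlapped.

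The same libraries carried the extremes of most members. AngII 7 or AngII 9 was the highest library for 71 of 80 members (88.8%), against 29.1% of all 15586 genes tested, and AngII 10 was the lowest for 41 members (51.2%), against 11.5% of all genes. Over the 62 members with a relative SD under 0.5, the median deviation from a gene's own mean was 0.70 in AngII 7, 0.58 in AngII 9 and -0.47 in AngII 10 on the log2 scale. It was 0.38 in Lien 11 and 0.30 in NS 2, and between -0.28 and 0.06 in the other 10 libraries.

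**Figure D2:**
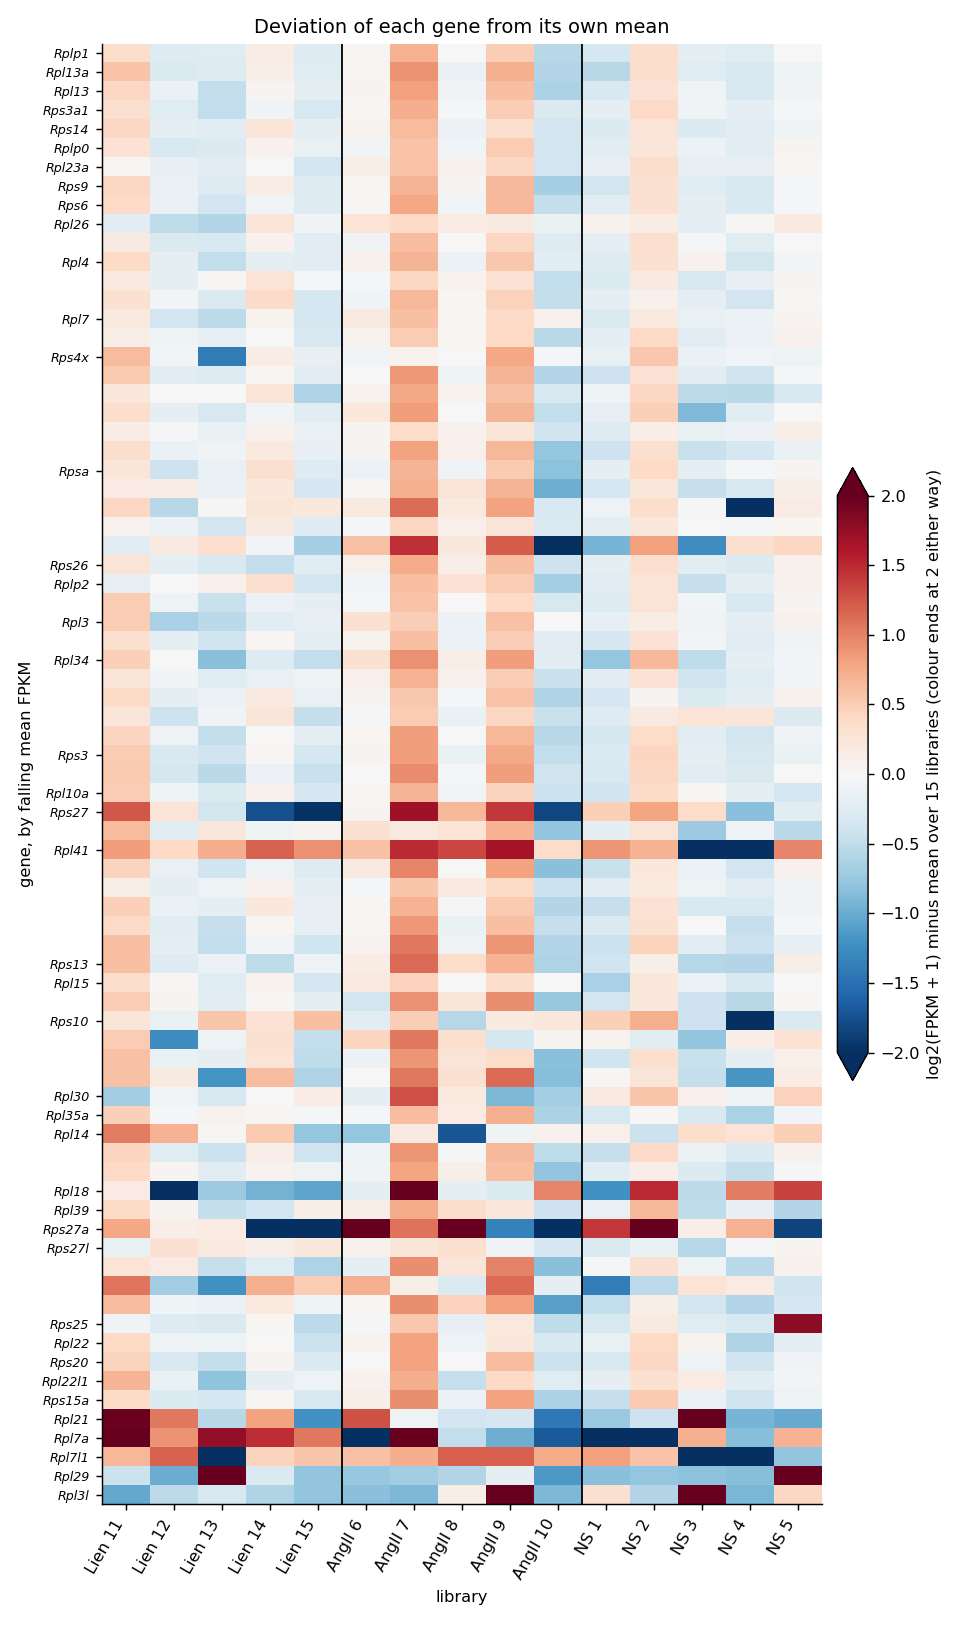
Deviation of each of 77 tested genes from its own mean over 15 libraries on the log2(FPKM + 1) scale, genes by falling mean FPKM, with those described in the text named, and libraries by group. AngII 7 and AngII 9 are red for most genes and AngII 10 is blue, and single dark cells mark genes such as Rpl41 in NS 3 and NS 4 or Rpl29 in Lien 13 and NS 5 that left the common pattern.

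The first comparison asks how the genes stood in hypertensive tissue. No member was called in AngII relative to NS by limma at an adjusted p under 0.05, where 0.077% of all genes were called, and the smallest adjusted p of a member was 0.697. At an unadjusted p under 0.05 there were 2 of 80 members, both higher in AngII (2.5%), against 7.04% of all genes. No member had groups that do not overlap, against 2.03% of all genes. The difference in level was on the higher side for 74 members and on the lower side for 6, with a median of 0.28 on the log2 scale, while 70.1% of all genes were on the higher side with a median of 0.12. The median was 0.29 over the 32 small-subunit genes and 0.25 over the 48 large-subunit genes, and the median standard error of a single gene was 0.26.

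That direction was not kept when AngII 7 and AngII 9 were left out together. Without both of them, a choice made after their values were seen, 25 members were higher and 55 lower in AngII, with a median of -0.04 and no member called. These 2 libraries had the highest sums of all 15, so leaving them out had to lower the AngII level. NS 2, the NS library with the highest sum, was kept in that fit. The median was 0.14 without AngII 7 alone, 0.17 without AngII 9 and 0.44 without AngII 10. Among the 9 libraries low in nerve markers 31 members were higher and 49 lower (median -0.03). That fit also leaves out AngII 7 and AngII 9, and keeps AngII 8 and AngII 10 alone of the AngII group. With nerve and lymphocyte marker scores as covariates 53 were higher and 27 lower (median 0.03). With all libraries scaled to one median, which moved the median of all genes to -0.01, 63 members were higher and the median was 0.14. Quantile normalization gave 67 higher (median 0.17), and library weights gave 75 (median 0.35).

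Rpl41, which encodes the smallest and most basic protein of the ribosome, had the largest difference. It stood at 208, 390, 350, 440 and 178 FPKM in AngII 6 to AngII 10, against 256, 225, 3.50, 0 and 272 in NS 1 to NS 5. NS 3 and NS 4 were near or at 0 and the other 3 NS libraries lay within the AngII range, so the groups overlapped. The log2 difference was 2.99 (SE 1.29, limma adjusted p = 0.697), and it came to 1.69 without NS 4.

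Rpl7l1, a paralogue of Rpl7 that takes part in assembly of the large subunit, stood at 14.2, 15.7, 21.9, 22.0 and 15.8 FPKM in AngII 6 to AngII 10, against 16.7, 13.98, 0.752, 0.811 and 4.83 in NS 1 to NS 5. NS 3 and NS 4 were again the low ones, and NS 1 and NS 2 lay close to the AngII libraries. The log2 difference was 1.77 (SE 0.77, limma adjusted p = 0.697).

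Other members with small p on the higher side had smaller differences. Rps13, of the small subunit, averaged 239 ± 100 FPKM in AngII and 149 ± 37 in NS (SD, n = 5 each), a log2 difference of 0.61 (SE 0.29, limma adjusted p = 0.705). The difference was 0.17 among the 9 libraries low in nerve markers, with AngII 8 and AngII 10 alone in the AngII group. Rpl15, of the large subunit, averaged 202 ± 30.2 FPKM in AngII and 159 ± 35.2 in NS (log2 0.36, SE 0.18, limma adjusted p = 0.711). On the lower side, Rpl14 averaged 95.1 ± 41.8 FPKM in AngII and 134 ± 29.8 in NS (log2 -0.61, SE 0.38, limma adjusted p = 0.736), and the difference was -0.30 without AngII 8 and -1.88 over protein-coding transcripts only. Rpl30, which also binds its own transcript in yeast, differed by -0.31 (-0.09 without AngII 9), and Rps25, required for some internal ribosome entry sites, by -0.22. Rpl29 and Rpl3l, both near 0 in most libraries, differed by -0.87 and -0.86, which came to 0.15 for Rpl29 without NS 5 and to 0.09 for Rpl3l without NS 3. The value for Rps25 rested on NS 5, at 232 FPKM where the other 14 libraries had 45.7 to 97.2, and without it the difference was 0.18.

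**Figure D3:**
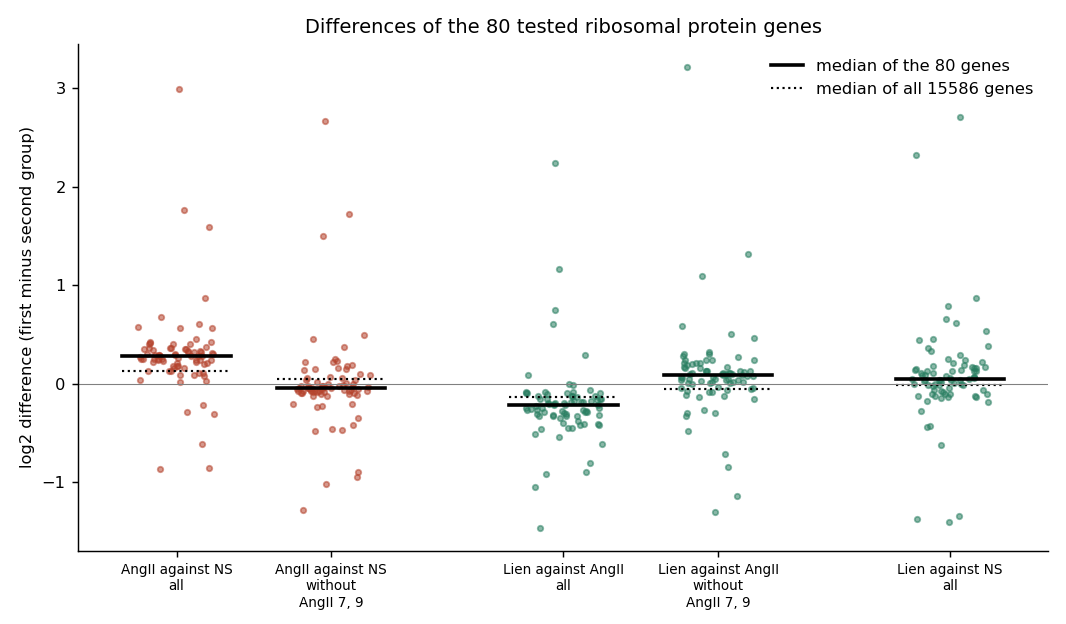
Log2 differences of the 80 tested genes in each comparison (points), with their median (solid bar) and the median of all 15586 genes (dotted bar), in all libraries and without AngII 7 and AngII 9. The median for AngII against NS is 0.28 in all libraries and -0.04 without these 2, and that for Lien against AngII is -0.22 and 0.08.

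The second comparison sets the Lien group, labelled hypertensive with Lien, against the AngII group. It shares the AngII libraries with the first. No member was called by limma in Lien relative to AngII, where 0.0128% of all genes were called, and the smallest adjusted p was 0.740. At an unadjusted p under 0.05 there were 5 of 80 members (6.25%), 1 higher and 4 lower, against 6.4% of all genes, and none had groups that do not overlap, against 0.982% of all genes. The difference was on the lower side for 74 members and on the higher side for 6, with a median log2 of -0.22 against -0.13 for all genes.

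Here too the side depended on a few libraries. Without AngII 7 and AngII 9, 59 members were higher and 21 lower in Lien, with a median of 0.08, and the median was -0.10 without AngII 7 alone and -0.40 without AngII 10. With libraries scaled to one median 35 members were higher and 45 lower (median -0.03), while quantile normalization left 6 higher and 74 lower (median -0.24). With nerve and lymphocyte covariates 54 were higher (median 0.08). Among the 9 libraries low in nerve markers 53 were (median 0.06), with AngII 8 and AngII 10 alone in the AngII group.

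Rpl7a, a large-subunit protein whose gene holds 3 small nucleolar RNAs in its introns, was 1 of the 6 on the higher side. It stood at 48.2, 16.4, 30.7, 25.04 and 18.5 FPKM in Lien 11 to Lien 15, against 0.247, 49.6, 5.62, 3.76 and 1.90 in AngII 6 to AngII 10. AngII 7 was the highest of the 10 and the other 4 AngII libraries lay below every Lien library. The log2 difference was 2.24 (SE 0.85, limma adjusted p = 0.740), and without AngII 7 and AngII 9 it was 3.22.

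On the lower side the smallest p belonged to Rpl7, Rpl18, Rpl26 and Rpl3. Rpl7, of the large subunit, stood at 488, 326, 298, 451 and 336 FPKM in Lien 11 to Lien 15, against 485, 646, 440, 558 and 454 in AngII 6 to AngII 10. The groups overlapped through Lien 11 and Lien 14, and the log2 difference was -0.45 (SE 0.18, limma adjusted p = 0.740). Counted over protein-coding transcripts alone it was -0.04. Rpl26, which binds the p53 messenger RNA, had a mean of 406 ± 96.8 FPKM in Lien, against 530 ± 69.6 in AngII, and a log2 difference of -0.40 (SE 0.17, limma adjusted p = 0.740).

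Rpl3, which lies at the peptidyl transferase centre, had a mean of 274 ± 95.9 FPKM in Lien, against 369 ± 76.9 in AngII, and a log2 difference of -0.46 (SE 0.21, limma adjusted p = 0.740), or -1.04 over protein-coding transcripts. Rpl18 stood at 91.1, 17.5, 48.8, 41.8 and 38.7 FPKM in Lien 11 to Lien 15, against 71.5, 394, 70.8, 67.3 and 162 in AngII 6 to AngII 10. AngII 7 stood far above the rest, and Lien 11 lay among the AngII libraries. The log2 difference was -1.46 (SE 0.61, limma adjusted p = 0.740) and came to -1.03 without AngII 7. The coding transcript Rpl18-201 stood at 353 FPKM in AngII 7, 149.7 in AngII 10, 203 in NS 2, 149.7 in NS 4 and 179 in NS 5, and at most 1.43 in the other 10 libraries. In those 10 the longer coding transcript Rpl18-207 carried 12.1 to 61.6 FPKM, and in the 5 it was below 1 FPKM. Rpl34 differed by -0.62 (-0.23 with nerve and lymphocyte covariates). On the higher side Rpl14 differed by 0.75, Rpl29 by 1.16, Rpl21 by 0.60 and Rps10 by 0.29. The value for Rpl29 was 0.05 without Lien 13, that for Rps10 0.15 without AngII 8, and that for Rpl14 0.44 without AngII 8 and 1.92 over protein-coding transcripts, where Rpl21 came to -0.35.

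The third comparison sets Lien against NS and shares libraries with both of the others. No member was called by limma, where 0.231% of all genes were, and the smallest adjusted p was 0.560. At an unadjusted p under 0.05 there were 2 of 80 members (2.5%), Rpl7a higher and Rpl18 lower in Lien, against 7.06% of all genes. The groups did not overlap for 1 member, against 1.8% of all genes. Of the 80 members 49 were on the higher side and 31 on the lower, with a median of 0.05 against -0.01 for all genes. The median turned to -0.05 without Lien 11 and to -0.01 without NS 4, was 0.16 without NS 2, and was -0.05 with quantile normalization, under which 29 members were higher.

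The member whose groups did not overlap was Rpl7a. Against the Lien values given above, of at least 16.4 FPKM, it stood at 1.07, 0.796, 14.2, 4.18 and 14.2 FPKM in NS 1 to NS 5, with NS 3 and NS 5 nearest to the lowest Lien library. The log2 difference was 2.32 (SE 0.85, limma adjusted p = 0.560) and lay between 1.92 and 3.13 over the alternatives. Its coding transcript was listed at 0 in NS 1, NS 2 and NS 4 and in AngII 6, AngII 9 and AngII 10.

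Rps27l, a paralogue of Rps27 induced by p53, stood at 89.0, 121, 113, 107 and 114 FPKM in Lien 11 to Lien 15, against 80.2, 89.5, 65.3, 96.2 and 102 in NS 1 to NS 5. Lien 11 lay within the NS range and the other 4 Lien libraries lay above all NS libraries. The log2 difference was 0.33 (SE 0.16, limma adjusted p = 0.711). Rpl35a, mutated in some patients with Diamond-Blackfan anaemia, averaged 147 ± 23.7 FPKM in Lien and 115 ± 20.04 in NS (log2 0.36, SE 0.23, limma adjusted p = 0.839). Rpl18 averaged 47.6 ± 27.0 FPKM in Lien and 140 ± 89.2 in NS (log2 -1.37, SE 0.61, limma adjusted p = 0.672). The remaining members with the smallest p were Rpl41 (2.71) and Rps10 (0.65) on the higher side, and Rpl3l (-1.40), Rps27a (-1.34), Rpl30 (-0.43) and Rpl26 (-0.27) on the lower, and their groups overlapped. Without NS 4 the difference was 1.41 for Rpl41 and 0.20 for Rps10. Rps27a came to -4.12 over protein-coding transcripts, Rpl3l to -0.21 with muscle and fat covariates and Rpl30 to -0.25 among the 9 libraries low in nerve markers.

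Several members were near 0 in some libraries and high in others. Of the 80 tested members, 5 had a library more than 10 times below their median and 2 had a library more than 10 times above it. The 2 were Rpl29 and Rpl3l, which were also among the 5, with medians of only 0.32 and 0.35 FPKM. The rest of the 5 were Rpl41, Rpl7a and Rpl7l1. The same counts over all genes are not given. Rpl29, a heparin-binding large-subunit protein, stood at 66.5 FPKM in Lien 13 and 41.0 in NS 5, and at 0 to 0.945 in the other 13 libraries. In those 13 libraries an assembled transcript with no public identifier stood at 88.3 to 206 FPKM, and in Lien 13 and NS 5 at no more than 0.815. The criterion behind that pairing, at least 5 times the highest value elsewhere plus 5 FPKM, was chosen after values had been seen. It picks transcripts by their opposite profile from those without a public identifier, of which there are 30229. The values come with no gene or position for these transcripts, so the pairing does not place any of them at the gene. By the same criterion Rpl41 had 2 such transcripts, Rpl3l had 1, and Rpl7a, Rpl7l1 and Rpl17 had 0. Such unnamed transcripts made up 10.97% to 17.0% of a library's FPKM, and their part in these values was not tested.

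Rps27a, which encodes ubiquitin fused to a small-subunit protein, was among the 5 most variable members. It stood at 100.9, 64.95, 66.1, 10.9 and 8.09 FPKM in Lien 11 to Lien 15. It stood at 239, 126.4, 289, 22.4 and 7.91 FPKM in AngII 6 to AngII 10, and at 158, 302, 64.6, 95.7 and 15.6 in NS 1 to NS 5. Libraries at or below 22.4 FPKM occurred in all 3 groups, and they were Lien 14, Lien 15, AngII 9, AngII 10 and NS 5. Its coding transcript Rps27a-201 was listed at 0 in 8 libraries, all 5 of these among them. The processed transcript Rps27a-205 was at 3.24 to 12.2 FPKM in these 5, and was highest in AngII 7 (106 FPKM) and Lien 11 (89.5 FPKM). Rpl17, a protein at the exit of the peptide tunnel, was not tested and stood at 31.3 FPKM in Lien 11, 3.45 in Lien 13 and at most 0.303 elsewhere.

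**Figure D4:**
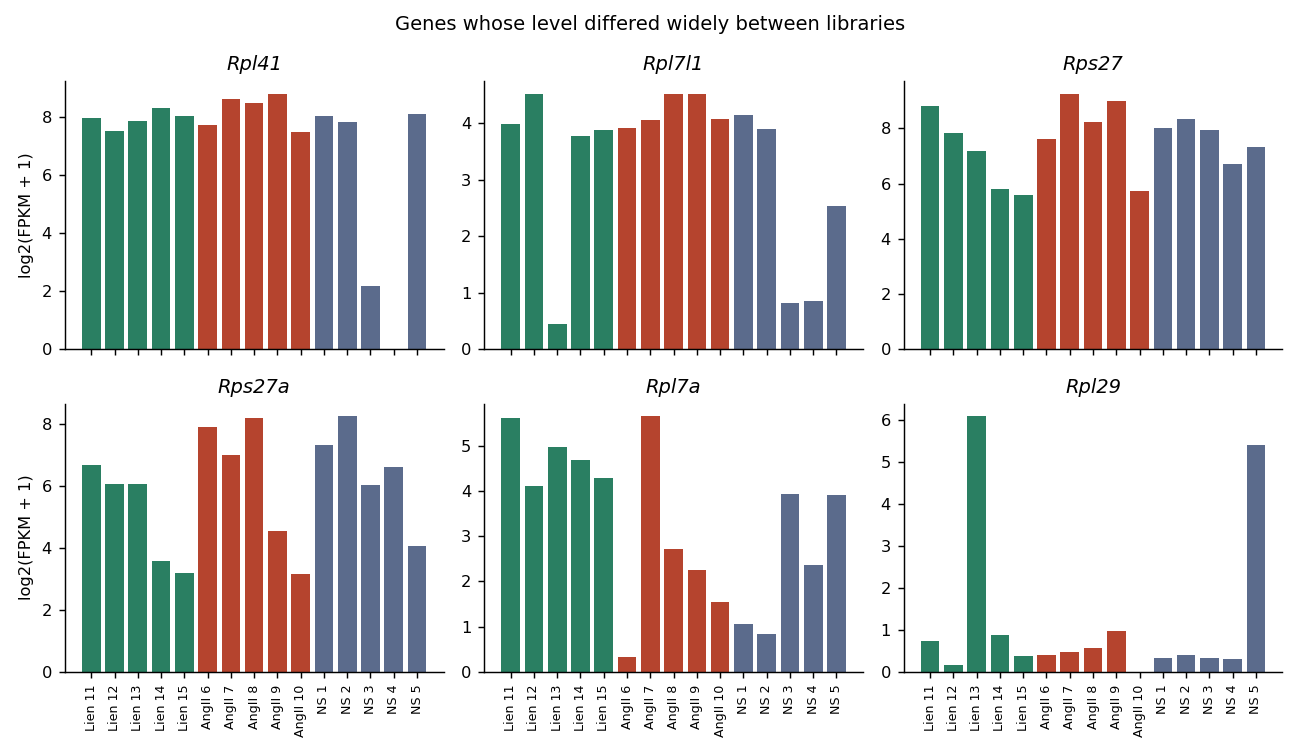
Level of 6 ribosomal protein genes on the log2(FPKM + 1) scale in each library, by group. Rpl41 is at 0 in NS 4 and at 3.50 FPKM in NS 3, Rpl29 is high in Lien 13 and NS 5 alone, and Rpl7a is above 16 FPKM in all 5 Lien libraries and in AngII 7.

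Much of the level of some members lay in transcripts that do not encode the protein. The median share of FPKM in coding transcripts was 96.8% over the tested members, 58 had over 90% and 6 had under 60%. In Rps26, 31.0% lay in coding transcripts and 68.9% in Rps26-202, an annotated retained intron, and in Rpl10a 35.9% was coding. Rpl21, Rpl3 and Rpl13a had 50.3%, 51.0% and 51.1% in coding transcripts. Rps15a and Rps20 had low levels for the family, 35.6 and 64.1 FPKM on average, and were led by transcripts of 5179 and 3706 bases, the length by which FPKM divides.

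The genes hosted small nucleolar RNAs more often than other genes, a known feature of the family. On the same strand inside the gene, 29 of the 80 tested members (36.2%) held at least 1 annotated small nucleolar RNA, against 232 of 13469 protein-coding genes tested (1.72%). Rpl4 held 5 and Rpl13a held 4. The median level was 259.8 FPKM for tested members with one and 254.8 for those without. Members lay on 19 chromosomes, 14 of them on chromosome 7.

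Paralogues were set against their parents within each library as a log2 ratio of FPKM + 1. For Rpl3l, mostly near or below 1 FPKM, the added 1 makes up much of the upper value, so that ratio also follows the level of the parent. Rpl3l stood at 0, 0.413, 0.628, 0.328 and 0.175 FPKM in Lien 11 to Lien 15. It stood at 0.134, 0.087, 1.198, 7.07 and 0.092 FPKM in AngII 6 to AngII 10, and at 1.495, 0.348, 46.4, 0.078 and 1.69 in NS 1 to NS 5. NS 3 and AngII 9 were the 2 highest, and these were also the 2 libraries highest in skeletal muscle markers, whose mean was 9.64 and 6.65 on the log2(FPKM + 1) scale there and at most 2.60 elsewhere. The 12 skeletal muscle markers summed to 12.54 to 86.3 FPKM in Lien, 12.96 to 1735 in AngII and 34.0 to 14428 in NS, none of them at 0 throughout, and their part in Rpl3l was not tested.

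The parent Rpl3 showed no such peak, at 290 FPKM in NS 3 and 457 in AngII 9. The log2 ratio of Rpl3l to Rpl3 averaged -7.59 ± 1.17 in AngII and -6.45 ± 2.21 in NS (SD, n = 5 each). Its difference of -1.15 had an exact two-sided permutation p of 0.397, adjusted p = 0.680 over the 12 tests of 4 pairs in 3 comparisons. The difference was -0.19 without NS 3 and -1.71 with 0.1 added in place of 1. The smallest p that 5 against 5 allows is 0.00794.

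None of the 12 tests passed. Rpl7l1 to Rpl7 averaged -4.78 ± 0.38 in AngII and -6.23 ± 1.58 in NS (SD, n = 5 each), a difference of 1.45 with an exact permutation p of 0.103 (adjusted p = 0.680). The ratio lay between -5.28 and -4.27 in AngII, and NS 1 and NS 2, at -4.30 and -5.04, lay within that range. Rpl22l1, known to act in splicing and, like its parent Rpl22, in T cell development, was almost as abundant as the parent. The log2 ratio averaged -0.26 ± 0.42 in Lien, -0.23 ± 0.21 in AngII and -0.10 ± 0.18 in NS (SD, n = 5 each). Rps27l to Rps27 averaged -0.27 ± 1.45 in Lien, -1.28 ± 1.23 in AngII and -1.23 ± 0.80 in NS, and most of this spread was that of the parent. Rps27 stood at 52.6 FPKM in AngII 10, 54.9 in Lien 14 and 46.8 in Lien 15 and at 105 to 608 in the other 12 libraries, where Rps27l ranged from 65.3 to 123 FPKM over all 15. In AngII 10, Lien 14 and Lien 15 the coding transcript Rps27-201 stood at 0, 3.01 and 0 FPKM. The retained intron Rps27-209 stood at 42.0, 40.2 and 40.1 FPKM there, and at most 10.97 elsewhere. The ratio differed by 1.01 in Lien against AngII and by 0.96 in Lien against NS, and by 1.86 and 2.26 over protein-coding transcripts. Rpl39l, the testis-type paralogue of Rpl39, was at most 0.231 FPKM in any library, against 69.0 to 175 FPKM for Rpl39.

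**Figure D5:**
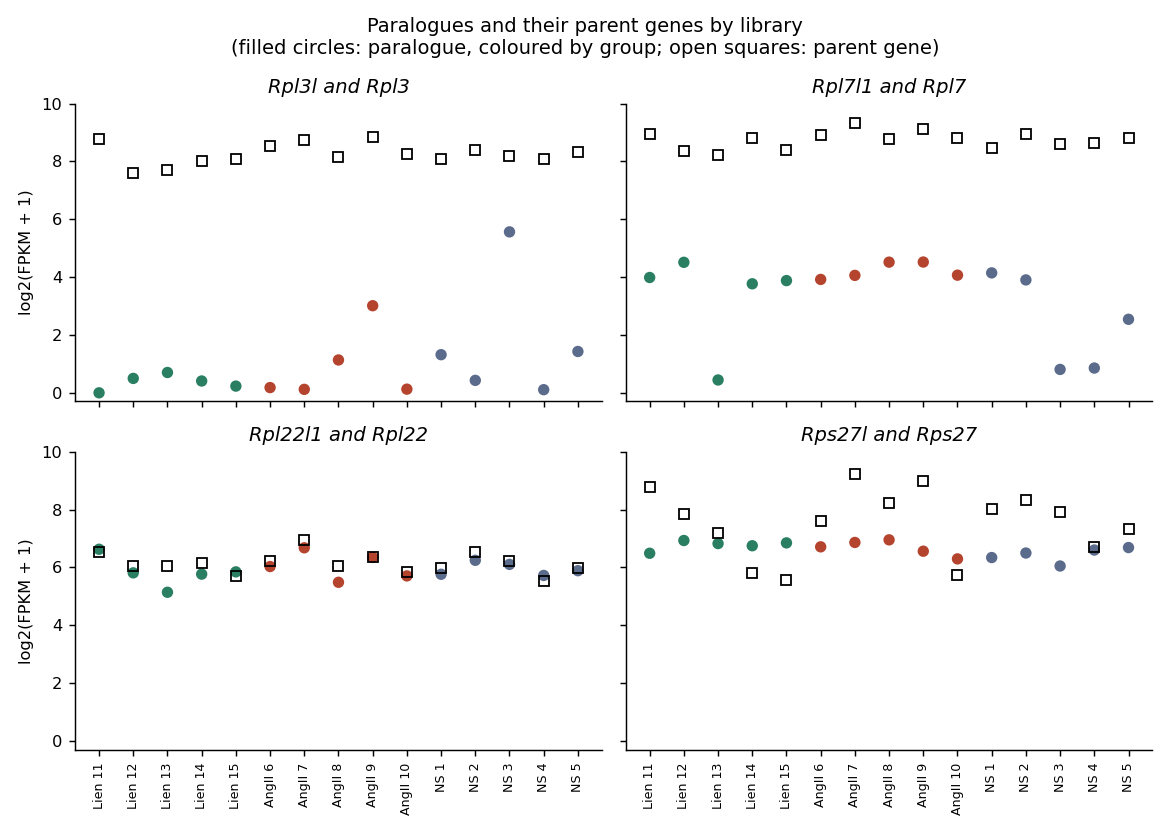
Paralogues (filled circles, coloured by group) and their parent genes (open squares) on the log2(FPKM + 1) scale in each library. Rpl3l stands above 7 FPKM in AngII 9 and NS 3 alone, Rpl22l1 stays near Rpl22, and Rps27 lies below Rps27l in AngII 10, Lien 14 and Lien 15.

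Lists of related genes are given beside all genes, of which 70.1% were higher in AngII relative to NS. Of a list of 4 genes that includes Fau, Rack1, a scaffold protein of the small subunit, and Rpl36al, all 4 were higher (median log2 0.29). Rack1 stood at 341, 516, 322, 476 and 268 FPKM in AngII 6 to AngII 10, against 246, 343, 265, 275 and 267 in NS 1 to NS 5. AngII 7 and AngII 9 were again the 2 highest, and the log2 difference was 0.43 (limma adjusted p = 0.697). Of 17 elongation factor and other pyrimidine-tract genes 16 were higher (94.1%, median 0.24), of 34 ribosome biogenesis genes 30 (88.2%, 0.18) and of 18 mTORC1 pathway genes 15 (83.3%, 0.16). Initiation factors, 23 of 33 (69.7%, median 0.07), and p53 target genes, 8 of 11 (72.7%, median 0.24), were near the share of all genes on the higher side. No gene of these lists was called by limma, where 0.077% of all genes were. At an unadjusted p under 0.05 there were 1 of 4, 2 of 17, 1 of 34, 4 of 18, 0 of 33 and 4 of 11 genes. These counts follow the order given, and 7.04% of all genes were under that limit.

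Without AngII 7 and AngII 9, 58.1% of all genes were higher in AngII, and so were 1 of the 4 genes above, 12 of 17 pyrimidine-tract genes, 19 of 34 biogenesis genes, 12 of 18 mTORC1 pathway genes, 25 of 33 initiation factors and 7 of 11 p53 targets. In Lien relative to AngII 70.2% of all genes were lower. The pyrimidine-tract and biogenesis lists had 16 of 17 (94.1%) and 29 of 34 (85.3%) on the lower side with medians of -0.20 and -0.17, which came to 10 of 17 and 18 of 34 without AngII 7 and AngII 9, against 59.6% of all genes. The mTORC1 pathway, with 14 of 18 (77.8%), p53 targets, with 8 of 11 (72.7%), and initiation factors, with 21 of 33 (63.6%), were nearer the share of all genes. These did not fall without AngII 7 and AngII 9. They then stood at 14 of 18 (77.8%), 8 of 11 (72.7%) and 23 of 33 (69.7%), against the same 59.6% of all genes. With all libraries no gene of these 5 lists was called by limma, where 0.0128% of all genes were. At an unadjusted p under 0.05 there were 1 of 17, 4 of 34, 2 of 18, 1 of 11 and 1 of 33, against 6.4% of all genes.

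The 78 mitochondrial ribosomal protein genes, which serve the other ribosome of the cell, were higher in 44 (56.4%) and lower in 34 for AngII relative to NS (median 0.02). In Lien relative to AngII they were higher in 67 (85.9%, median 0.16), where 29.8% of all genes were higher, and without AngII 7 and AngII 9 in 69 (88.5%), where 40.4% of all genes were. None of them was called by limma in either comparison, where 0.077% and 0.0128% of all genes were. At an unadjusted p under 0.05 there were 2 and 3 of the 78, against 7.04% and 6.4% of all genes. In Lien relative to NS they were higher in 69 of 78 (median 0.18), where 47.8% of all genes were higher. There too none was called by limma, where 0.231% of all genes were.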

How the data were processed

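Total RNA depleted of ribosomal RNA was sequenced in 15 libraries of tissue labelled vascular, per the labels. The deposited table holds values per transcript whose unit its header does not name. They were read as FPKM, since they are not whole and do not sum to a fixed total, with the authors' aligner, quantifier and build not given in the sources used here. The submitters' processing notes name limma without a version or a role. Of 131437 transcripts, 99965 were matched to GENCODE M21 (GRCm38) and summed to 32930 genes, 1243 with an Ensembl identifier were not matched, and 30229 carry no public identifier and stayed out. The library kit does not mark strand, and reads of a ribosomal protein gene and its processed pseudogenes may be shared between them, in a way that these values cannot show.

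The 15586 genes at 0.5 FPKM or more in at least 5 libraries were tested with limma 3.58.1 (R 4.3.3) after log2(FPKM + 1) transformation, in 1 fit of 3 group means with trend and robust empirical Bayes (12 residual degrees of freedom, two-sided), with Benjamini-Hochberg adjustment over all genes and calls at an adjusted p under 0.05. A fold change on this scale understates the change of low genes. Paralogue ratios were tested with exact permutation tests in scipy 1.17.1, and figures were drawn with matplotlib 3.10.9. Alternatives covered the pseudocount (0.1), the filter (none, or 2 FPKM), 4 scalings, trend, library weights, marker covariates, coding transcripts only, separate fits and each library left out.

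Named were, in each comparison, the 5 members with the smallest p on each side, and in all, the 8 with the highest mean, the stalk genes and Rpsa, the paralogues with their parents, and the 5 most and 5 least variable members. Results of some genes are not reported here. Members with singular profiles beyond these were picked after their values were seen. The members and lists were chosen with earlier results of these data known.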

Additional observations from a re-analysis of the deposited data

Results flagged for a closer look

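Each group of 5 libraries was searched, for the members named in the text and the summed level, for 1 library that stood apart from the other 4 (a gap of more than 0.71 of the range of the group, the 95% limit for 5 values). In 16 of 120 groups a library stood out this way. Chance flags about 1 in 20 independent groups, a rate that is no measure for these, since members share swings between libraries and some were named for their spread. In Lien these were Rpl29 at 66.5 FPKM in Lien 13, where the others had 0.114 to 0.831, and Rpl35a and Rps13 at 189 and 264 FPKM in Lien 11. In AngII, AngII 7 stood apart with Rpl18 at 394 FPKM (others 67.3 to 162) and Rpl7a at 49.6 (others 0.247 to 5.62). AngII 9 stood apart with Rps4x, an X-linked small-subunit gene, at 680 FPKM (others 382 to 414) and Rpl3l at 7.07, and AngII 6 with Rpl21 at 41.9. In NS, NS 2 stood apart with Rpl39 at 166 FPKM, Rps3 at 335, Rps3a1 at 781 and Rps4x at 576. NS 3 stood apart with Rpl21 at 72.2 FPKM and Rpl3l at 46.4, and NS 5 with Rpl29 at 41.0 FPKM and Rps25 at 232. Over all 15 libraries Rps4x was highest in AngII 9, Lien 11 (612 FPKM) and NS 2, stood at 414 FPKM in AngII 7, and was lowest in Lien 13 (149 FPKM).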

How the results depend on the processing

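Over 31 alternatives in each comparison, no ribosomal protein gene was called, and the smallest adjusted p of a member was 0.164 for AngII against NS (without AngII 10), 0.208 for Lien against AngII (library weights) and 0.230 for Lien against NS (nerve and lymphocyte covariates). The median log2 difference of the members lay between -0.06 and 0.44, between -0.40 and 0.12, and between -0.05 and 0.16 in these comparisons, so its sign was not settled in any of them. In the 15 fits without 1 library it ran from 0.14 to 0.44, from -0.40 to -0.10 and from -0.05 to 0.16. Scaled to the median ribosomal protein gene, which by construction removes the common level, it was -0.06, 0.12 and 0.04, with 23, 62 and 49 members higher. A term for the 6 libraries highest in nerve markers, added after the data were seen, gave 0.18, -0.04 and 0.15. The number of all genes called was 12 for AngII against NS, and 35 with library weights. It was 0 among the 9 libraries low in nerve markers, which hold AngII 8 and AngII 10 alone of the AngII group. The number was 2 for Lien against AngII (1 to 6). For Lien against NS it was 36 (7 with the Lien and NS libraries alone in the fit, 94 with library weights). The median changed sign in 3, 4 and 4 of the alternatives. The SD of the median member between libraries within a group was 0.39 on the log2 scale. That SD is a spread of single libraries and not of a difference between group means. Of the values for single genes and ratios, 17 changed sign. Among single genes in AngII against NS, leaving out 1 library gave -1.38 to 0.0934 for Rpl3l (the highest without NS 3) and -1.13 to 0.15 for Rpl29, and Rps25 came to 0.18, both without NS 5. Rpl21 in Lien against AngII was -0.35 over protein-coding transcripts only. The log2 ratio of Rpl3l to Rpl3 in Lien against AngII was 0.50 over protein-coding transcripts, 0.06 without AngII 8, 0.36 without AngII 9 and 0.19 without Lien 11 (-0.34 to 0.36 without any 1 library), and that of Rpl7l1 to Rpl7 ran from -0.79 to 0.19, the last without Lien 13. The ratio of Rpl22l1 to Rpl22 was 0.02 without AngII 9 and 0.13 without Lien 13 in Lien against AngII (lowest -0.13), and 0.0024 without Lien 13 in Lien against NS (lowest -0.26). That of Rps27l to Rps27 in AngII against NS was 0.40 over protein-coding transcripts, 0.23 without AngII 7, 0.23 without AngII 9, 0.23 without NS 4 and 0.10 without NS 5 (lowest -0.51). None of these passed a test, and the cause was not tested. No paired analysis was possible because the libraries are numbered 1 to 15 across the groups and share no number.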
